A study of Drosophila melanogaster with 6 samples.

Results

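Rab GTPases and SNARE proteins were examined in S2* cells (a Drosophila melanogaster culture line derived from S2, whose cells resemble macrophages) after exposure to 20-hydroxyecdysone (20E), the steroid hormone that drives insect moulting and metamorphosis. Members were all probe sets annotated to exactly 1 gene whose current symbol begins with Rab and a digit or X, or with Syx, Vamp or Snap and a digit. The rule found 30 probe sets for 29 genes, out of 18769 probe sets and 11982 named genes on the arrays. Of the 29 genes, 22 encode Rab GTPases, 4 encode SNAREs (Vamp7, Snap24, Snap25 and Snap29) and 3 encode regulators of Rab3 whose symbols also match the rule (Rab3-GEF, Rab3-GAP and Rab3GAP1). No syntaxin is among them, so on the SNARE side the label covers the Vamp7 and SNAP-25 families. The syntaxins and Rab1, Rab4, Rab5, Rab6, Rab7, Rab8 and Rab11 were not analysed here. One further probe set, annotated to 4 closely related Rab9-type genes, was left out by the rule.

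Rab GTPases are small switches that sit on membranes in their GTP-bound form and recruit motors, tethers and fusion factors, so that each one marks certain compartments. Exchange factors load them with GTP and GTPase-activating proteins turn them off. SNAREs act at the next step, when a SNARE on a vesicle zips together with partners on the target membrane and drives fusion. In fly blood cells these proteins are known for their part in taking up particles and bringing them to lysosomes, and in secreting matrix and immune proteins.

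The study put total RNA on Affymetrix Drosophila 2.0 arrays, 1 array per sample, from 3 samples treated for 24 h with 1 µM 20E and from 3 untreated samples. By their titles, all samples were S2* cells. For the untreated samples, the records used here mention neither a time nor a solvent, so 20E and either of these cannot be told apart. The labels do not state that the replicates came from separate cultures; the p-values then rest on a spread that may be technical.

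Median deposited intensities of the arrays lay between 43.2 and 56.4 units. Precision is limited by the small number of arrays. 20E replicate 2 stood somewhat apart, with 456 empty cells, 5.29% of its values below 0, and correlations of 0.868 and 0.877 with the other 20E arrays, which correlated at 0.952 with each other (over 18080 probe sets, which are not independent). Untreated replicate 1 correlated at 0.881 and 0.918 with the other untreated arrays, which correlated at 0.955 with each other. Of 5 genes listed as a check of the hormone response, 4 rose, among them Hsp27 and Eip78C. Of 9 listed plasmatocyte markers, 4 rose with 20E (vkg, crq, srp and Col4a1). Differences were above 0 for 5 of the 9, and the lowest was −0.38. The summed intensity of the 9 ran from 6582 to 9849 units on 20E arrays, against 2048 to 3400 on untreated arrays. Bright probe sets weigh most in such a sum. The markers eater and NimC1 lay below the array medians in both groups, with means of 12 and 17.2 units with 20E, against 12.8 and 27.0 without. None of the 6 measured neuron markers passed the test (0 also at an unadjusted p under 0.05, limma), and their summed intensity was 177 to 242 units with 20E, against 230 to 266 without. Of the other marker lists, 1 of 5 crystal cell and lamellocyte markers rose (PPO3, by 1.80 on the log2 scale, limma adjusted p = 0.00978) and 1 of 4 germ line markers (aub, by 1.54, limma adjusted p = 0.0346). None of 4 fat body markers (2 at an unadjusted p under 0.05, 1 higher and 1 lower) or 4 muscle markers (0 at an unadjusted p) passed. Summed intensities with 20E, against untreated, were 334 to 487 against 258 to 631 units for the crystal cell and lamellocyte list, 192 to 364 against 121 to 1278 for germ line, 181 to 339 against 146 to 161 for fat body and 1945 to 3683 against 2198 to 6373 for muscle. Whether the marker changes have a part in the results below was not tested.

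The comparison asked which of these trafficking genes changed after a day of hormone. The SNARE gene Vamp7 and the Rab gene Rab14 rose, each to nearly 3 times its untreated intensity, and no member fell. The other 27 genes did not pass the test, which was limma on log2(quantile-normalized intensity + 16) with Benjamini-Hochberg adjustment over 18767 probe sets and a threshold of 0.05. Called members made up 6.67% of the 30 probe sets (2, both higher), where 5.1% of all probe sets were called in either direction, 3.02% as higher and 2.08% as lower. Of the members, 5 had an unadjusted p under 0.05 (16.7%), all 5 higher, against 17.2% of all probe sets in either direction and 8.81% higher. The 20E and untreated values of 7 members did not overlap (23.3%, with 6 or 20.0% higher and 1 or 3.33% lower). Among probe sets measured on all 6 arrays this held for 22.7%, with 10.4% higher and 12.3% lower. In the values as deposited, 9 members did not overlap and were higher (30.0%, against 14% of those probe sets) and 0 were lower (against 9.02%). After normalization the members' shares were thus near those of the whole array when both directions were counted together, while the share that was higher was above that of the whole array and the share that was lower was below it. That difference by direction was not tested. The median log2 difference, 20E minus untreated, was 0.20 over the member probe sets and −0.02 over all probe sets. Differences were above 0 for 18 of the 30 member probe sets (60.0%), against 47.7% of all probe sets. Without probe sets that, by their suffix, can match more than 1 transcript, the members' median was 0.01 over 21 probe sets.

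**Figure D1:**
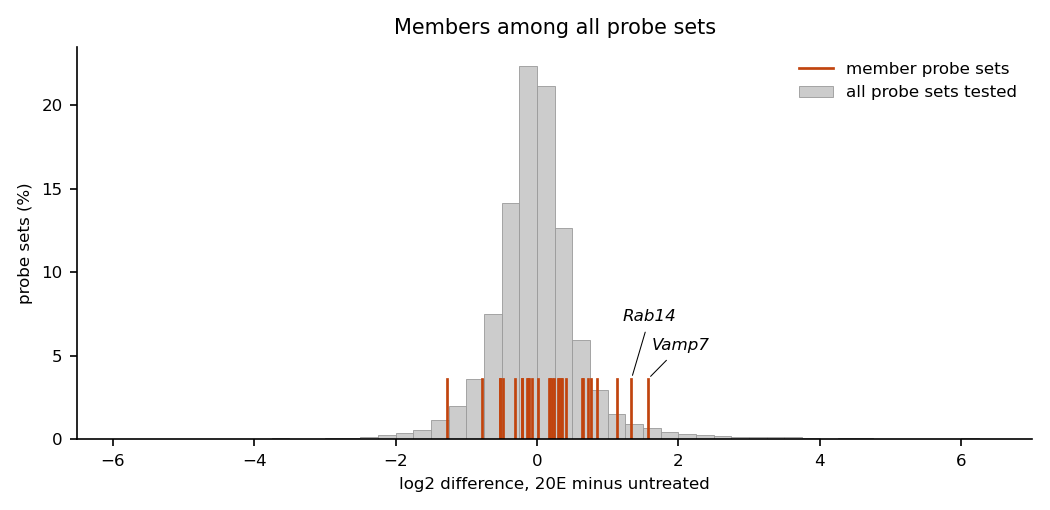
Histogram of the log2 difference (20E minus untreated, horizontal axis) over all probe sets tested, in percent of probe sets per bin of 0.25, with the 30 member probe sets drawn as vertical lines of arbitrary height. Members lie across the bulk of the distribution, from −1.28 to 1.57, and Vamp7 and Rab14 are the called ones.

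The SNAREs were led by Vamp7, which encodes a vesicle SNARE of late endosomes and lysosomes that in flies also serves the fusion of autophagosomes with lysosomes. Vamp7 had 2045, 1850 and 2303 normalized intensity units in 20E replicates 1, 2 and 3, against 815, 568 and 694 in untreated replicates 1, 2 and 3. In the values as deposited, before normalization between arrays, these were 2158, 2031 and 2342 with 20E, against 623, 607 and 671 without. Every 20E array was more than 2-fold above every untreated array on either scale. The means were 2066 ± 227 units with 20E and 692 ± 124 untreated (SD, n = 3 each), a ratio of 2.99. On the log2 scale Vamp7 rose by 1.57 ± 0.22 (SE, limma adjusted p = 0.00955), with a 95% interval of 1.05 to 2.08. The difference ran from 1.43 to 1.75 over 14 alternative settings. The call was lost without 20E replicate 3 (adjusted p = 0.0529) and without untreated replicate 3 (0.0646), with differences of 1.48 and 1.57, and it passed on leaving out any other single array.

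The other SNAREs belong to the family that supplies a pair of helices to the SNARE bundle. Snap24, a relative of Snap25, had 266, 198 and 184 units with 20E, against 170, 92.9 and 119 untreated. Its groups did not overlap, but the log2 difference of 0.72 ± 0.27 (SE) did not pass the test (limma adjusted p = 0.228). Snap29, which pairs with Vamp7 in the fusion of autophagosomes with lysosomes in flies, had 804, 1164 and 664 units with 20E, against 532, 2298 and 1375 untreated. Untreated replicate 1 was below and untreated replicates 2 and 3 were above all 20E arrays, and the interval of the difference, −1.72 to 0.77, leaves room for a fall of over 2-fold or a rise. The difference of −0.47 was −1.04 without untreated replicate 1 and near 0 without untreated replicate 2. Snap25, the SNAP of synaptic vesicle release, averaged 7.0 ± 5.31 units with 20E and 8.98 ± 5.53 untreated (SD, n = 3 each), below the array medians in both groups.

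**Figure D2:**
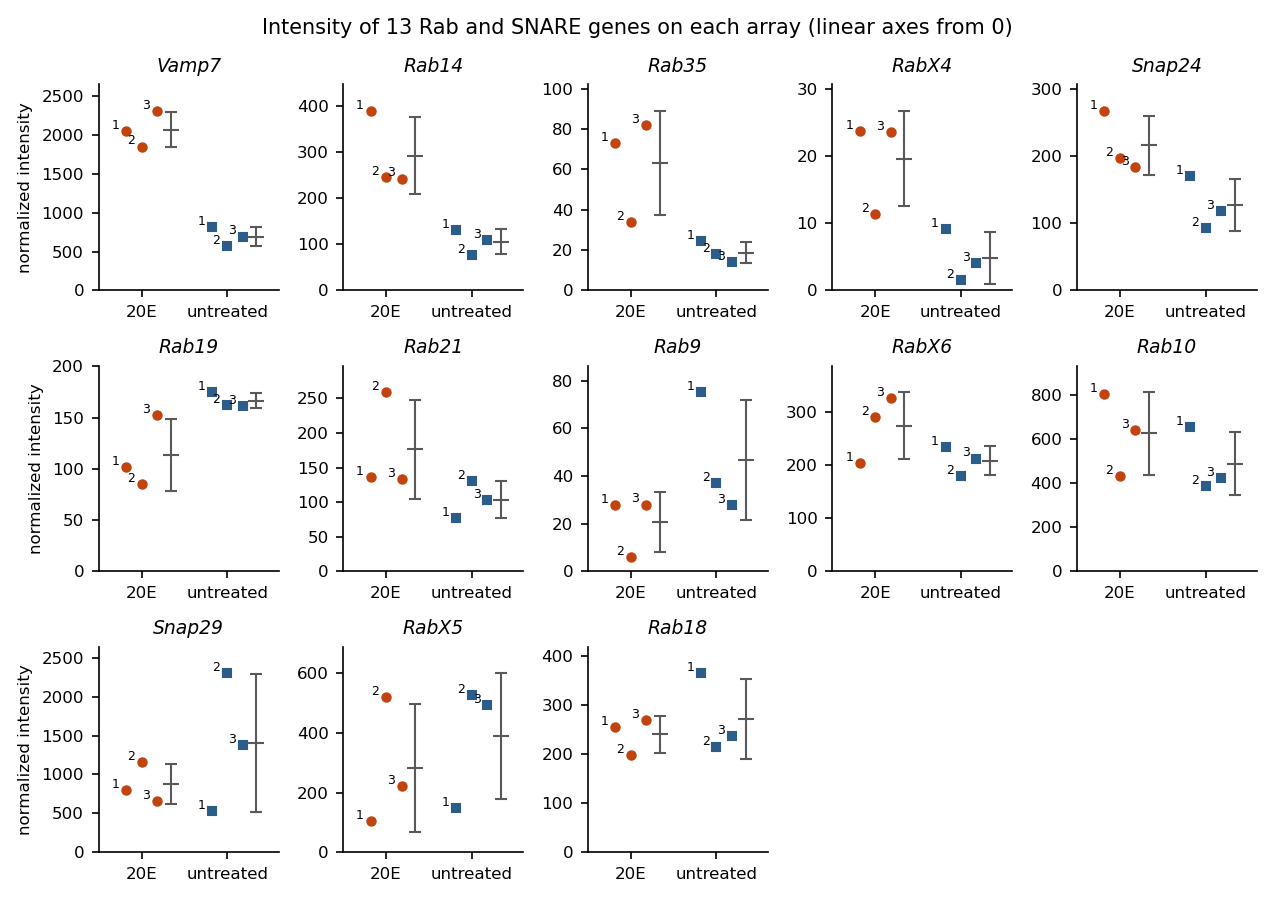
Normalized intensity (vertical axes, linear from 0) of the 13 genes given array by array, with 20E left and untreated right in each panel. Points are single arrays with their replicate number, and the bar beside them is the mean ± SD of 3 arrays. Vamp7 and Rab14 show separated groups, while the untreated values of Snap29 run from 532 to 2298 units.

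Of 6 Rabs known from endosomes, lysosomes or phagosomes, 1 rose (Rab14) and 5 did not pass the test. Differences were above 0 for 5 of the 6 (83.3%), against 47.8% of all named genes, and the median of the 6 was 0.43. Over all 22 Rab genes they were above 0 for 14 (63.6%), with a median of 0.20. The 8 secretory and Golgi Rabs described below had 5 above 0 (62.5%, median 0.09), and the 8 further Rabs had 4 (median 0.12). Whether the classes of Rabs differ in this was not tested. Rab14, which in mammals works between early endosomes and the Golgi and in fly blood cells in the maturation of phagosomes, had 387, 245 and 242 normalized units in 20E replicates 1, 2 and 3, against 131, 76.9 and 108 untreated. As deposited, the values were 428, 232 and 282 with 20E, against 109, 79.6 and 108 untreated. The lowest 20E array was thus above the highest untreated array, and 20E replicate 1 was the highest of all. The means of 291 ± 83.1 units with 20E and 105 ± 27.1 untreated (SD, n = 3 each) have a ratio of 2.77. Rab14 rose by 1.33 ± 0.28 on the log2 scale (SE, limma adjusted p = 0.0433, 95% interval 0.68 to 1.99). That call lay close to the threshold. It was lost on leaving out any single array, with adjusted p of 0.135, 0.0585 and 0.107 without 20E replicates 1, 2 and 3, and of 0.0636, 0.155 and 0.167 without untreated replicates 1, 2 and 3, while the difference stayed between 1.12 and 1.48. It was also lost with an offset of 1 (0.0905), with median centring (0.0502) and without variance moderation (0.136).

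Rab35, which acts in recycling to the plasma membrane and, in fly blood cells, in phagocytosis, had 73.3, 34.1 and 82.2 units with 20E, against 24.4, 18.1 and 13.9 untreated. The groups did not overlap, and 20E replicate 2 was the lowest of the 20E arrays. The log2 difference was 1.14 ± 0.30 (SE), with a limma adjusted p of 0.0944, which missed the threshold. The untreated values and that of 20E replicate 2 lay below the array medians. The difference depended on the offset, at 0.60 with an offset of 64 and 1.64 with an offset of 1. Without 20E replicate 2 it was 1.44 and passed (adjusted p = 0.0203), the single alternative of 15 in which a member other than Vamp7 and Rab14 was called. Rab21, known in fly macrophages for endosomal traffic and remodelling of the cell cortex, had 136, 259 and 133 units with 20E, against 77.3, 131 and 102 untreated. Its groups were separated by a narrow gap, between 133 and 131 units, and its difference was 0.65 ± 0.31 (limma adjusted p = 0.367), or 0.36 without 20E replicate 2. Rab9, which in mammals returns receptors from late endosomes to the Golgi, had 27.6, 6.01 and 28 units with 20E, against 75.1, 37 and 27.9 untreated. It differed by −0.77 ± 0.39 (limma adjusted p = 0.387), with overlapping groups, and by −0.44 without 20E replicate 2 or −0.47 without untreated replicate 1. The difference of Rab9 also depended on the offset, at −0.38 with an offset of 64 and −1.28 with an offset of 1. Rab39, linked to lysosomes, and Rab32, needed for pigment granules in fly eyes, differed by 0.21 and 0.18, with intervals from −0.28 to 0.70 and from −0.28 to 0.64, so a 2-fold change on this scale lies outside the intervals of both.

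**Figure D3:**
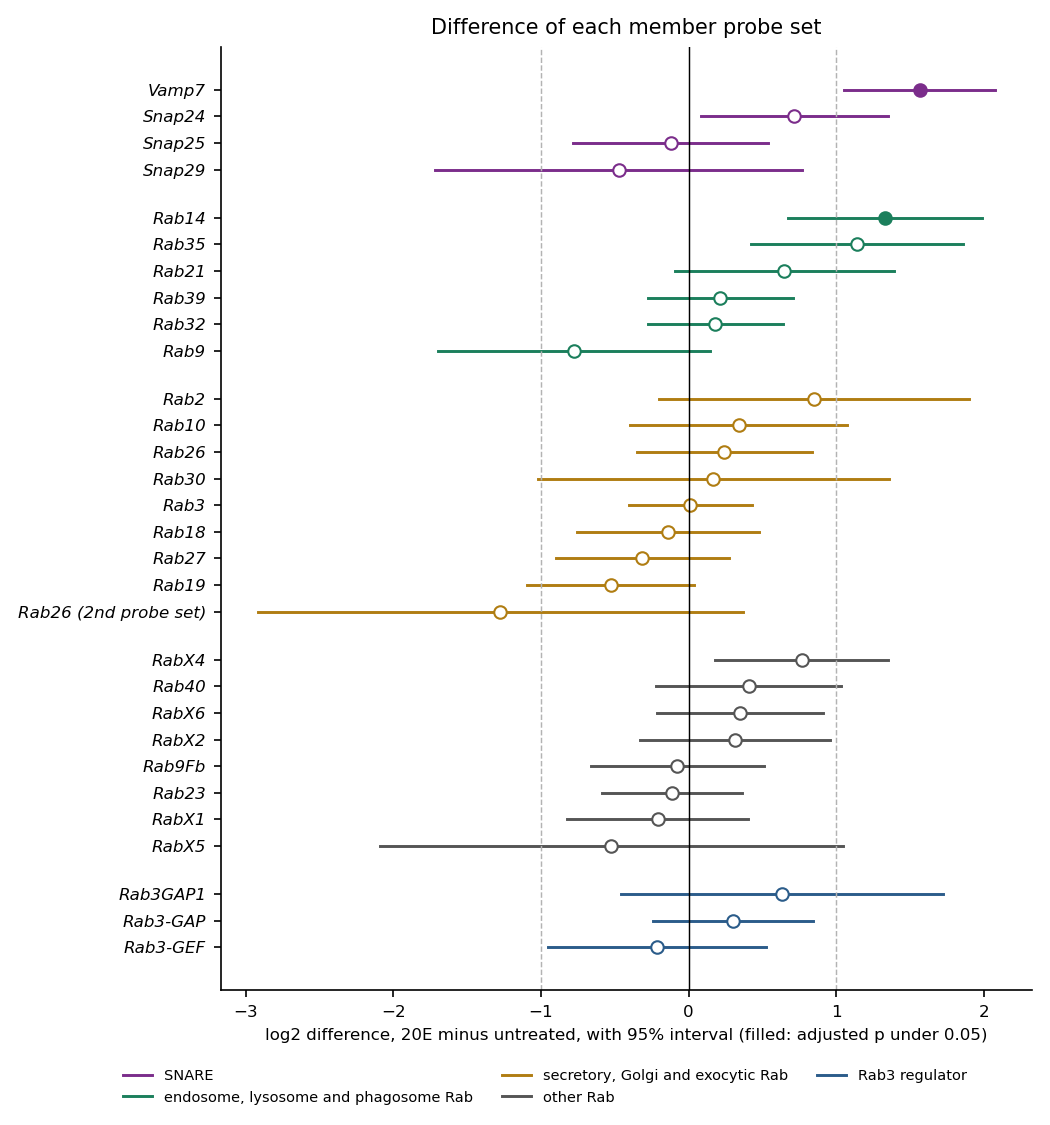
Log2 difference (20E minus untreated, horizontal axis) of the 30 member probe sets with its 95% interval, grouped by the class of the gene. Filled points passed the test, and the dashed lines mark a difference of 1 in either direction. Vamp7 and Rab14 are the filled points, and 14 of the 30 intervals lie within the dashed lines. Differences of dim probe sets are compressed on this scale.

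Of 8 Rabs known mainly from the secretory route, the Golgi or regulated exocytosis, none passed the test (0 also at an unadjusted p under 0.05, limma). Rab10, which in fly epithelia directs secretion of basement membrane, had 803, 431 and 639 units with 20E, against 652, 388 and 422 untreated, and differed by 0.34 ± 0.31 (SE). Leaving out 1 array moved that difference between 0.14, without 20E replicate 1, and 0.58, without 20E replicate 2. Rab18, linked to the endoplasmic reticulum and lipid droplets, had 255, 198 and 269 units with 20E, against 365, 214 and 236 untreated. Its difference of −0.14 ± 0.26 changed sign, to 0.05, without normalization between arrays and, to 0.08, without untreated replicate 1. Rab19, a Golgi-associated Rab, was the member whose groups separated downward after normalization. It had 102, 85.2 and 153 units with 20E, against 175, 162 and 162 untreated, and its difference of −0.53 ± 0.24 did not pass (limma adjusted p = 0.331). As deposited its groups overlapped, at 105, 88.9 and 173 units with 20E, against 145, 165 and 158 untreated, and the difference without normalization between arrays was −0.36.

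The remaining secretory Rabs were given by means. Rab2, which acts at the Golgi and in fly autophagosome clearance, averaged 42.1 ± 32.8 units with 20E and 13.3 ± 7.13 untreated (SD, n = 3 each), with a difference of 0.85 ± 0.44 (SE) that was 0.43 without 20E replicate 3 and 1.29 without 20E replicate 2. Rab30, a Golgi Rab, averaged 177 ± 91 units with 20E and 152 ± 84.8 untreated, and Rab27, known for secretory granule release, 75.5 ± 6.0 with 20E and 100 ± 34 untreated (SD, n = 3 each). Rab3, the synaptic vesicle Rab, was at the floor of the measurement, with means of 0.637 units with 20E and 0.479 untreated and 1 value below 0 in each group, so no fold is given. Rab26, associated with vesicles in secretory cells and neurons, has a pair of probe sets. The brighter averaged 72.1 ± 26 with 20E and 56.6 ± 5.14 untreated and differed by 0.24, while the other differed by −1.28 (limma adjusted p = 0.429), with 1 value below 0 with 20E and untreated values from 7.87 to 142 units.

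Among 8 further Rabs, none passed the test (1 at an unadjusted p under 0.05, limma). That 1 was RabX4, for which no role is given here, with 23.8, 11.5 and 23.6 units with 20E, against 9.10, 1.5 and 4.04 untreated. All 6 values lay below the array medians, so although the groups did not overlap, the difference of 0.77 ± 0.25 (limma adjusted p = 0.159) depended on the offset and ran from 0.28 to 1.97 over the alternatives. RabX6 had 203, 290 and 326 units with 20E, against 233, 180 and 212 untreated, with overlapping groups. As deposited they did not overlap, at 217, 271 and 382 units with 20E, against 191, 183 and 205 untreated. RabX5 varied most within groups of the 29 genes, by 1 probe set per gene, with 104, 521 and 222 units with 20E, against 148, 528 and 494 untreated, and an interval of −2.09 to 1.04. Its difference of −0.52 was −1.08 without 20E replicate 2 or untreated replicate 1 and near 0 without 20E replicate 1. Rab40, whose mammalian relatives join a ubiquitin ligase, Rab23, known for planar polarity in fly wings, and RabX1, RabX2 and Rab9Fb differed by −0.21 to 0.41. Rab9Fb has close relatives, and signal shared with them could not be separated here.

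The 3 regulators of Rab3 did not pass the test (0 also at an unadjusted p under 0.05, limma). Rab3GAP1 encodes the catalytic subunit of the complex that turns Rab3 off. It averaged 59.1 ± 35.9 units with 20E and 29.7 ± 16.6 untreated, and Rab3-GAP, annotated in the same complex, 127 ± 25 with 20E and 99.9 ± 18.1 untreated (SD, n = 3 each). Rab3-GEF, the exchange factor, averaged 26 ± 13.2 units with 20E and 32.3 ± 13.7 untreated. Their log2 differences were 0.63, 0.30 and −0.21.

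Members varied within groups about as much as other probe sets, with a median within-group SD of 0.32 on the log2 scale over the 29 genes, against 0.35 over all probe sets. 20E replicate 2 gave the lowest 20E value for 14 of the 29 genes (48.3%), where it was lowest for 42.0% of all probe sets. Untreated replicate 1 gave the highest untreated value for 20 of the 29 genes (69.0%), against 47.0% of all probe sets. Without that array the members' median difference was 0.29 and 1 member (Vamp7) was called. For 14 of the 30 probe sets the 95% interval of the difference lay between −1 and 1, and for the other 16 it reached a 2-fold change on this scale. Intervals between −1 and 1 were found for 48.7% of all probe sets. Dim probe sets are among the 14, such as Rab3, with an interval of −0.41 to 0.43. The offset of 16 compresses their differences, so such an interval does not exclude a larger fold in intensity.

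**Figure D4:**
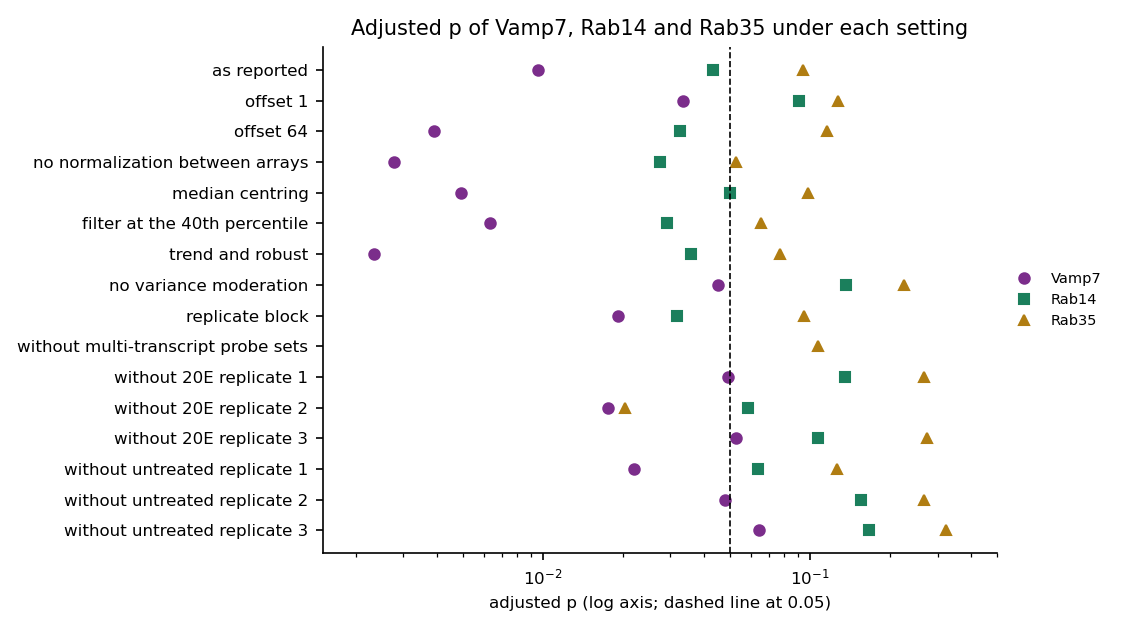
Adjusted p (horizontal log axis, dashed line at 0.05) of Vamp7, Rab14 and Rab35 as reported and under each alternative setting. Vamp7 was called in 12 of 14 alternatives, Rab14 in 5 of 14 and Rab35 in 1 of 15; Vamp7 and Rab14 have no value without probe sets that match several transcripts.

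The partners of Rabs and SNAREs were read from 13 lists covering 112 measured genes. Of these, 2 rose and none fell (1.79% called), against 6.58% of all named genes (3.74% as higher). At an unadjusted p under 0.05 there were 22 (19.6%), against 20.6% of all named genes, of which 21 were higher (18.8%), against 10.5%. Differences were above 0 for 83 of the 112 (74.1%), against 47.8% of all named genes. That difference by direction was not tested, and the lists were chosen with earlier results of these data known. Rip11, a Rab11 effector, was called as lower in 5 of 15 alternatives, though not in the fit reported here. The 2 that rose were Rabex-5 and Arl8. Rabex-5, an exchange factor for Rab5 and in mammals also for Rab21, had 508, 395 and 497 units with 20E, against 148, 80.1 and 78.5 untreated. Its 20E values were more than 2-fold above the highest untreated one, and it rose by 2.07 ± 0.28 (SE, limma adjusted p = 0.00826). The call was lost without untreated replicate 3 (adjusted p = 0.057) and without variance moderation (0.0623). Arl8, an Arf-like GTPase that moves lysosomes along microtubules and aids their fusion, had 563, 447 and 469 units with 20E, against 263, 208 and 187 untreated. It rose by 1.12 ± 0.21 (limma adjusted p = 0.0322). That call held without 20E replicate 2 (0.0419) or untreated replicate 1 (0.0437) and was lost without 20E replicate 1 (0.126), 20E replicate 3 (0.110), untreated replicate 2 (0.131) or untreated replicate 3 (0.159).

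By list, none of 8 other SNAREs passed (2 at an unadjusted p under 0.05, limma), and their median log2 difference was 0.40. Of 11 genes for SNARE priming, disassembly and Sec1-Munc18 proteins none passed (6 at an unadjusted p), with a median of 0.65. Of 9 Rab exchange factors 1 rose (2 at an unadjusted p), with a median of 0.14. Of 8 GTPase-activating proteins none passed (1 at an unadjusted p), with a median of 0.30. None of 3 genes for Rab escort, recycling and prenylation passed (1 at an unadjusted p), nor of 21 Rab effectors (5 at an unadjusted p), with medians of 0.10 and 0.23. Among the tethers, none of 7 exocyst genes, 9 HOPS and CORVET genes or 11 COG and GARP genes passed, with 0, 2 and 0 at an unadjusted p and medians of 0.30, 0.47 and 0.08. None of 11 coat protein genes, 6 retromer and sorting nexin genes or 6 synaptotagmins passed (0, 1 and 0 at an unadjusted p), with medians of 0.25, 0.50 and 0.06. Of 4 measured Arf and Arl genes 1 rose, with a median of 0.67.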

How the data were processed

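Per the labels, total RNA was biotin-labelled and hybridised to Affymetrix Drosophila 2.0 arrays. The values the authors deposited are linear intensities, 1 for each probe set on each array; how probes were summarised, background-corrected and scaled is not given in the sources used here. Values run below 0 and array medians differ, so intensities were quantile normalized between arrays, set to a floor of 0 and taken as log2(intensity + 16). This compresses differences of dim probe sets, and quantile normalization removes a shift of most transcripts. Quoted normalized intensities precede the floor. Intensities of different probe sets are not on 1 scale.

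Groups and replicate numbers came from the titles. The 20E and untreated arrays (3 each) were compared with limma 3.58.1 in R 4.3.3 (lmFit, eBayes, two-sided). Of the probe sets, 2 could not be fitted. Adjustment followed Benjamini and Hochberg and took in the whole table. In simulated data of 18080 probe sets, 100 were changed at each size, all of them brighter than the median probe set. The fit called 2% of 2-fold and 50% of 4-fold changes, and 3 of its 55 calls were false. The real comparison gave 957 calls. The adjusted threshold depends on how many probe sets change, so the simulated rates do not carry over to it. A gene that missed the threshold may still have changed 2-fold or more. SE is moderated. A gene with several probe sets was represented by the brightest. Symbols came from a platform annotation, updated through a RefSeq gene table of Release 6 plus ISO1 MT, in which all 30 member probe sets were found. Values per array are given for called members, those without overlap and with a log2 difference of at least 1, the 8 with the smallest p and the 6 brightest. The members and lists were chosen with earlier results of these data known. No sequences were used.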

Additional observations from a re-analysis of the deposited data

How the results depend on the processing

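With an offset of 1, 567 probe sets were called (370 higher, 197 lower) in place of 957 (567 and 390), with 1 member and 1 gene of the trafficking lists. Without variance moderation there were 397 (247 and 150), with 1 member and 0 list genes (22 of 112 at an unadjusted p under 0.05, limma). With median centring 1 member was called. Leaving out probe sets that match several transcripts removed those of Vamp7 and Rab14 and left 629 calls (349 higher), 0 members of 21 (3 at an unadjusted p, limma) and a member median of 0.011. The list genes numbered 5 with an offset of 64, 4 after removal of probe sets dimmer than the 40th percentile and 5 with the replicate block, in place of 2. On leaving out 1 array, calls ran from 326 to 1069 (232 to 713 higher, 94 to 356 lower), members from 0 to 2 and list genes from 0 to 7; the 0 members arose without 20E replicate 3 or untreated replicate 3 (5 and 3 at an unadjusted p, limma), and the 7 without 20E replicate 2. No member was called as lower in any of these settings. Rab18 changed sign, to 0.054 without normalization between arrays and to 0.080 without untreated replicate 1, in a range of −0.28 to 0.080 on leaving out 1 array. Among members given by means or differences alone, Snap25, Rab30, Rab9Fb, Rab3 and Rab3-GEF took both signs over the alternatives. Vamp7 and Rab14 lost their calls in 11 of 28 repeats. Replicate numbers are shared between groups. Deviations from the group means correlated at 0.238, 0.374 and −0.02 between same-numbered arrays, and 20E replicate 3 correlated best with untreated replicate 1 (0.338). With 3 arrays per group these correlations constrain each other, so they cannot show whether same-numbered arrays shared a culture or day. With the replicate block, 954 probe sets and 2 members were called. Apart from those the settings themselves explain, the causes were not tested.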

Other observations

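In the RefSeq gene table of Release 6 plus ISO1 MT, the gene on one side of Vamp7 is Sting, which encodes the sensor of cyclic dinucleotides in antiviral defence. Sting rose by 2.05 ± 0.20 on the log2 scale (SE, limma adjusted p = 0.00235). The gene Marc, which overlaps Vamp7 in that table, differed by −0.92 ± 0.34 (adjusted p = 0.226), and Lsm11, on the other side, by −0.03 ± 0.23. The genes beside Rab14, l(2)34Fd and Pgant35A, differed by −0.52 ± 0.38 and 0.17 ± 0.26, and neither passed the test. Vti1a, a SNARE gene that overlaps RabX6 in the table, differed by 0.79 ± 0.22 (adjusted p = 0.112). Phf7, beside Rab35, differed by −1.41 ± 0.37 (limma adjusted p = 0.0929), opposite in sign to Rab35. Neighbours of the other members are not given here. These neighbours were looked up after the values of the members were seen.

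Among the partner genes that missed the threshold, the most negative log2 difference was that of Rip11, a Rab11 effector, at −2.11 ± 0.44 (SE, limma adjusted p = 0.0578). Its cell for untreated replicate 1 is empty, so the fit used 3 20E and 2 untreated arrays, with means of 78.3 units with 20E and 364 untreated and groups that did not overlap. Over 15 alternatives the difference ran from −2.36 to −1.63 and was called in 5, with adjusted p from 0.0271 to 0.298. It was named after its value was seen.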
